A study of Mus musculus with 4 samples.

Results

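The genes described here serve class I antigen presentation in the mouse brain cortex, led by Mr1, which encodes a class I-like molecule. They are Mr1, B2m, Tap1, Tap2, Tapbp, H2-K1, H2-D1, H2-T23, Cd1d1 and Nlrc5, taken by gene symbol with the row of highest mean signal per symbol. Of these 10 genes 9 were measured, among 19505 genes named on the array, each by 1 transcript cluster (the set of probes for a gene). Nlrc5 was not analysed here. The group was selected on the difference in Mr1 signal between these same TCQA and water arrays, so the values of its genes are given as a description and without a test.

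Total RNA came from brain cortex of SAMR1 mice, the normally ageing control line of the senescence-accelerated mouse strains. All animals were males, housed singly for 4 months from 7 months of age and dosed daily by mouth for 1 month from 11 months of age. The treated mice were given 5 mg/kg of TCQA (tricaffeoylquinic acid, a polyphenol made by plants), and the control mice were given MilliQ water. There were 2 arrays (Clariom S, mouse) for each of the groups, which limits the precision. Whether an array carried RNA of 1 animal or of a pool is not stated in the labels, so the spread between arrays, and every p-value made from it, may be technical.

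Class I molecules display fragments of the cell's own proteins at its surface to CD8 T cells and natural killer cells. A heavy chain pairs with the light chain beta-2-microglobulin in the endoplasmic reticulum, where the TAP transporter brings in peptides from the cytosol and tapasin helps to load them. Mr1 and Cd1d1 use the same light chain but present small vitamin B metabolites to mucosal-associated invariant T cells and lipids to natural killer T cells. In the brain, microglia and endothelium carry class I molecules, and neurons express some of them at low levels, where roles in synapse remodelling have been described in mice.

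Levels are log2 signals, on which a difference of 1 is a 2-fold change. The medians of the named transcript clusters lay between 6.98 and 7.04 on the 4 arrays. Of all named transcript clusters, 50.5% had a higher mean after TCQA, the share beside which later counts of higher or lower genes stand. The 5222 probe sets that the array marks as negative controls had a median of 6.98 and a 95th percentile of 11.06 over all arrays. Of the 9 genes, B2m exceeded that percentile in both groups, and 5 genes lay below the negative control median in both group means, so that the differences of most of these genes are uncertain in size. The tissue label was set beside markers of excitatory cortical neurons. Their signal does not separate cortex from other brain tissue, as striatal markers were bright too, with list means between 12.57 (TCQA 2) and 14.05 (water 1). Camk2a, a kinase of excitatory synapses, read 18.60 and 18.42 on the TCQA arrays, against 18.52 and 18.88 on the water arrays, and Slc17a7, the vesicular glutamate transporter, read 16.32 and 16.27 on the TCQA arrays, against 15.98 and 16.34 on the water arrays. Both stood above the 95th percentile of the negative controls on every array. The excitatory neuron list had means of 12.21 and 12.15 on the TCQA arrays, against 11.47 and 12.11 on the water arrays, so that water 1 stood apart. Its means were higher after TCQA for 10 of 11 genes, Camk2a being the exception, with a median log2 difference of 0.29. An unadjusted p under 0.05 was reached by 2 of the 11, against 7.37% of all named transcript clusters. The part of this shift in the class I values was not tested.

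Mr1 was higher after TCQA, while its partner chain and the classical heavy chains were not. On the Mr1 transcript cluster (TC0100003301.mm.2) the levels were 7.34 and 7.39 on the TCQA arrays, against 6.26 and 6.24 on the water arrays. Both TCQA arrays thus stood above both water arrays, and the arrays of a group differed by 0.052 after TCQA and by 0.018 after water. The log2 difference was 1.11 (SE 0.18), or 2.16-fold. A share of 0.450% of the named transcript clusters had a larger difference in either direction, which restates the basis on which the gene was picked. The TCQA mean exceeded 57.3% of the negative controls and the water mean exceeded 36.1% of them, so both lay within the range of the negative controls and the fold is uncertain.

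By size alone, Mr1 was the 1 of the 9 genes with a difference of over 2-fold. Of all 19572 transcript clusters, 0.664% met the submitters' criteria (a change of over 2-fold with an unadjusted p under 0.05). These criteria add a p-value to the size, so this share is not the one for size alone. No transcript cluster passed limma's test after Benjamini-Hochberg adjustment (0 of 19572, where 1443 had an unadjusted p under 0.05 and the smallest adjusted p was 0.642). Leaving out 1 array gave Mr1 differences between 1.08 and 1.14, a range that the small gaps within the groups fix.

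**Figure D1:**
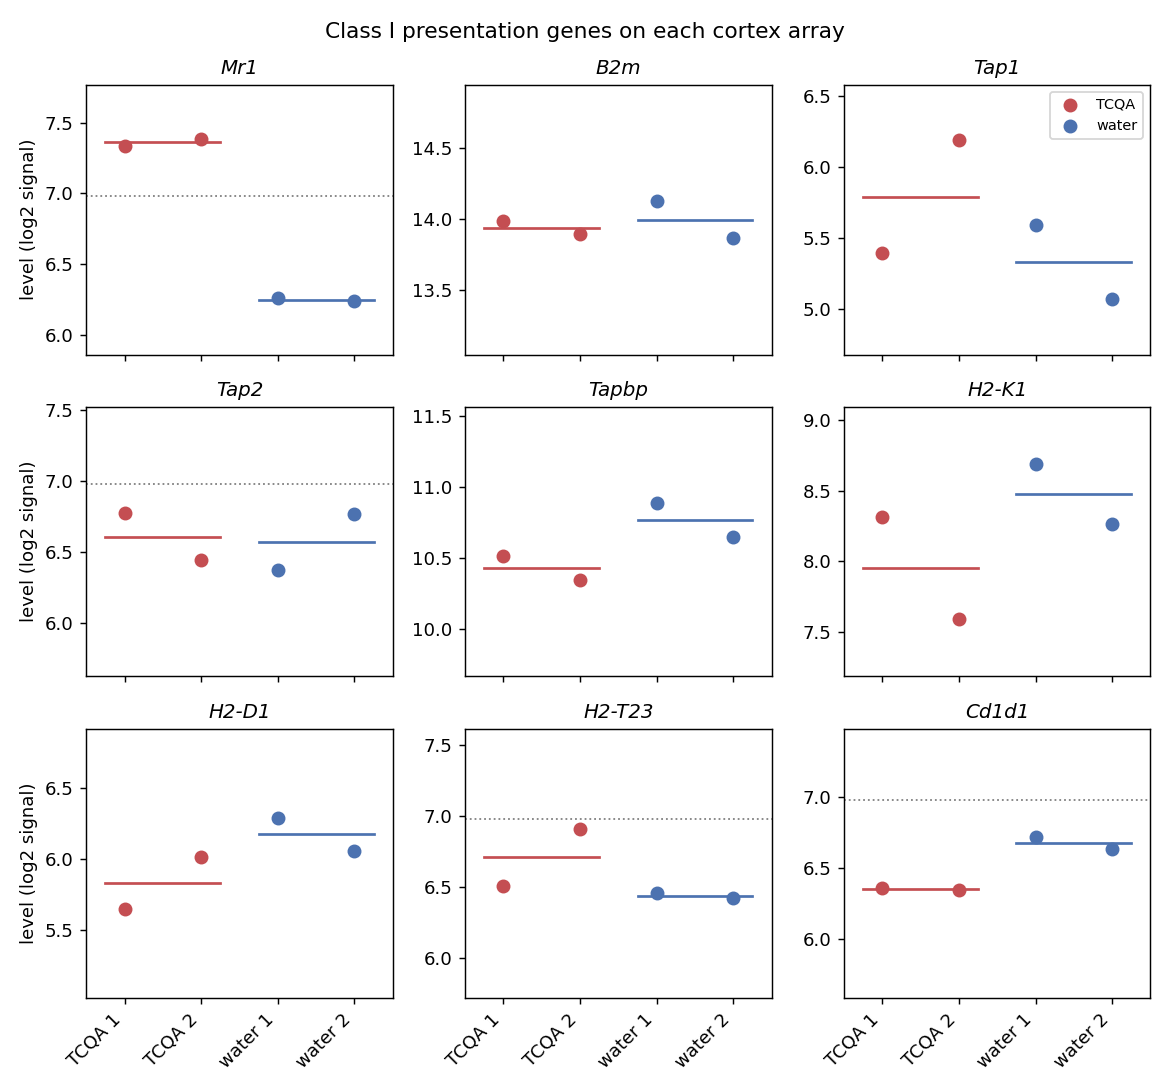
Level (log2 signal, vertical axes, all spanning the same number of log2 units) of the 9 measured class I presentation genes on each array, with TCQA points in red, water points in blue, lines at the group means and a dotted line at the negative control median of 6.98 where it falls inside a panel. The Mr1 points of each group nearly coincide, reading 7.34 and 7.39 on the TCQA arrays, against 6.26 and 6.24 on the water arrays, and the B2m and Tap2 points of the groups overlap.

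B2m, the light chain that Mr1, Cd1d1 and all the classical heavy chains need to reach the cell surface, stood above the 95th percentile of the negative controls. Its levels were 13.99 and 13.89 on the TCQA arrays, against 14.13 and 13.87 on the water arrays. The groups overlapped, and the arrays of the water group lay further apart than the group means. The log2 difference was -0.058 (SE 0.20), and it changed sign, to 0.074, without water 1.

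The classical heavy chains, which present peptides to CD8 T cells, had lower group means after TCQA. H2-K1 read 8.32 and 7.60 on the TCQA arrays, against 8.68 and 8.27 on the water arrays. TCQA 1 lay above water 2, so that the groups overlapped, and TCQA 2 was the lowest array. The log2 difference was -0.52 (SE 0.30), ranging from -0.88 without TCQA 1 to -0.16 without TCQA 2. H2-D1 read 5.64 and 6.01 on the TCQA arrays, against 6.29 and 6.05 on the water arrays, a log2 difference of -0.35 (SE 0.22). The H2-D1 groups did not overlap, but TCQA 2 and water 2 were separated by less than the arrays of either group, and the difference ranged from -0.53 without TCQA 2 to -0.16 without TCQA 1. H2-K1 and H2-D1 belong to a family of closely similar genes that vary strongly between mouse strains, so probes may read more than 1 member, and how well they match the SAMR1 alleles was not tested.

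H2-T23 encodes Qa-1, a non-classical chain recognised by receptors of natural killer cells. It read 6.51 and 6.91 on the TCQA arrays, against 6.46 and 6.42 on the water arrays. The groups did not overlap, although TCQA 1 stood close to both water arrays. The log2 difference was 0.27 (SE 0.22), and it ranged from 0.069 without TCQA 2 to 0.47 without TCQA 1, on probes whose group means exceeded 44.3% of the negative controls after TCQA and 39.9% after water.

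Cd1d1, the lipid-presenting chain, differed in the opposite direction from Mr1. It read 6.35 and 6.34 on the TCQA arrays, against 6.71 and 6.63 on the water arrays. As for Mr1, the arrays of each group lay close together and the groups did not overlap. The log2 difference was -0.32 (SE 0.18), between -0.37 and -0.28 when any 1 array was left out, and 28.0% of the named transcript clusters had a larger one in either direction. Both group means lay below the negative control median.

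The genes of the peptide-loading complex did not share a direction. Tap1, a subunit of the peptide transporter, read 5.40 and 6.19 on the TCQA arrays, against 5.60 and 5.07 on the water arrays. The groups overlapped, TCQA 2 was the highest array, and the log2 difference of 0.46 (SE 0.32) ranged from 0.064 without TCQA 2 to 0.86 without TCQA 1, with 0.72 without water 1 and 0.20 without water 2. Tap2, the other subunit, read 6.77 and 6.45 on the TCQA arrays, against 6.38 and 6.77 on the water arrays, a log2 difference of 0.036 (SE 0.23). The arrays of each Tap2 group lay further apart than the group means, and the sign turned without TCQA 1 (-0.13) and without water 1 (-0.16). Tap1 and Tap2 lay below the negative control median on all 4 arrays.

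Tapbp encodes tapasin, which bridges the transporter and the heavy chain. Its levels were 10.51 and 10.35 on the TCQA arrays, against 10.89 and 10.65 on the water arrays. The groups did not overlap, but TCQA 1 and water 2 were closer to each other than the arrays of either group. The log2 difference was -0.34 (SE 0.20), and it ranged from -0.46 without water 2 to -0.22 without water 1. Its group means exceeded 93.0% of the negative controls after TCQA and 94.0% after water.

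**Figure D2:**
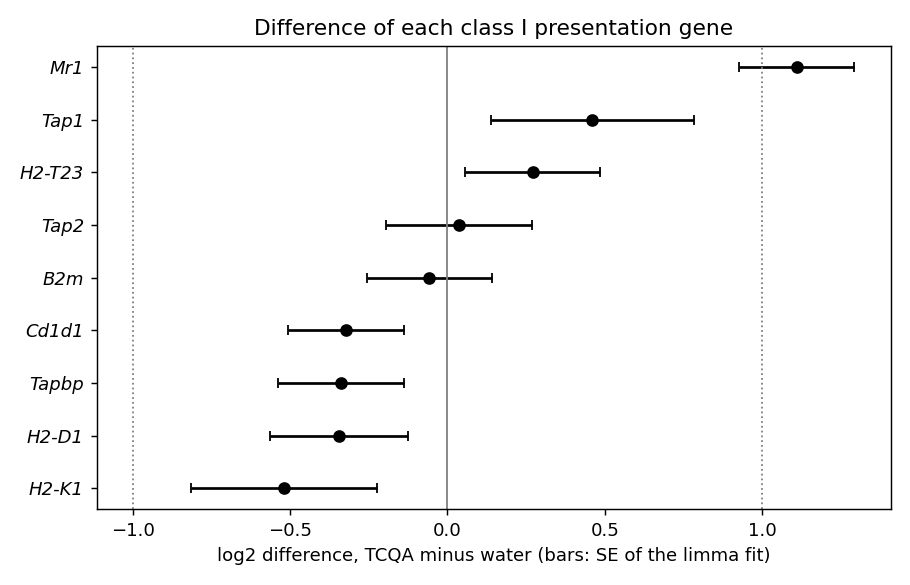
Log2 difference between the TCQA mean and the water mean (horizontal axis) of the 9 genes, with bars for the SE of the limma fit and dotted lines at a 2-fold change in either direction. Mr1 stands beyond the 2-fold line at 1.11, and the other 8 genes lie between -0.52 and 0.46.

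Across the 9 genes, 4 had a higher mean after TCQA and 5 a lower one. The median log2 difference was -0.058, against 0.0028 over all named transcript clusters, and the median size regardless of direction was 0.34, against 0.19 over all. The groups did not overlap for 5 genes, 2 higher after TCQA (Mr1 and H2-T23) and 3 lower (Tapbp, H2-D1 and Cd1d1), while 39.2% of all named transcript clusters had groups that did not overlap (19.9% with TCQA higher and 19.2% with TCQA lower). The same arrays chose the genes, so nothing is read from these counts. Water 1 was the highest array for 5 of the 9 genes and TCQA 2 for 3.

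The upstream sequences of Mr1 and of the genes it is set against are shown because classical class I genes and B2m are known to share control elements for interferon, NF-kappaB and the NLRC5 complex. RefSeq promoter sequences (build GRCm38.p6, from C57BL/6J and not from SAMR1) were matched for 7 of the 10 genes, and the 250 bases before the start of each gene were searched on both strands. The motifs were an interferon response element (GAAANNGAAA), the NF-kappaB consensus, the CCAAT box (CCAAT) and the half-site of a cyclic AMP response element (TGACG), the last a letter pattern found within the X box of class I promoters. Of 32851 promoters of this length, 2.98% held the interferon element, 7.25% the NF-kappaB consensus, 33.8% the CCAAT box and 17.8% the half-site. Each sequence runs 5′ to 3′ on the strand of the gene, with every match in capitals. They lie at chr1:155146815-155147064 (minus strand) for Mr1, chr2:122147437-122147686 (plus strand) for B2m, chr17:34000348-34000597 (minus strand) for H2-K1 and chr17:35262844-35263093 (plus strand) for H2-D1. The H2-K1 window is that of the first of its listed start sites.
Mr1: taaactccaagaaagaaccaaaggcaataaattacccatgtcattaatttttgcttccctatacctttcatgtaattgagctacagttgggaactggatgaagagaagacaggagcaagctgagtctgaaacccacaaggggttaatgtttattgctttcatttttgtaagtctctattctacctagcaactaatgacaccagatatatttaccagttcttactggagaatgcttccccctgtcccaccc
B2m: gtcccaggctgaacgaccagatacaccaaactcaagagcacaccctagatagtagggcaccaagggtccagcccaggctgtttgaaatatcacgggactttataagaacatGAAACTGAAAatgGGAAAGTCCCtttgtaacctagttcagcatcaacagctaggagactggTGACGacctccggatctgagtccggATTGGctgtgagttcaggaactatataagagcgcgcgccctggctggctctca
H2-K1: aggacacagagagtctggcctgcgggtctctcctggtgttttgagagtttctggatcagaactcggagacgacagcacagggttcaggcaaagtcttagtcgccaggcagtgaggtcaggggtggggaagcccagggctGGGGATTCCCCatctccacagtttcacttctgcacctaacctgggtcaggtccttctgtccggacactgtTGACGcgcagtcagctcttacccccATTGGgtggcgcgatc
H2-D1: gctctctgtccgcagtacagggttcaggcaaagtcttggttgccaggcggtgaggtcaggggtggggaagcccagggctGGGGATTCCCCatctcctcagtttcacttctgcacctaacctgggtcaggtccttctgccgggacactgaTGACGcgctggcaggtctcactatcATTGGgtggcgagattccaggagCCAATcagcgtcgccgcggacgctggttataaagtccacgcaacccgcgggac
The Mr1 window held 0 matches to the 4 motifs, which says only that these letters are not in these 250 bases. The B2m window held 1 match to each of the 4, with the interferon element 139 to 130 bases before the start and the NF-kappaB consensus 126 to 117 bases before it. The H2-K1 and H2-D1 windows each held 1 palindromic NF-kappaB site, counted as 4 overlapping matches, and 1 half-site, with 1 CCAAT box in H2-K1 and 2 in H2-D1. The window of the other listed H2-K1 start site held 2 CCAAT boxes. Of the genes whose sequence is not shown, H2-T23 held 1 interferon element and 1 CCAAT box, Tap1 held 1 CCAAT box and 1 half-site, and Tapbp held 2 CCAAT boxes. The search took only these fixed letter patterns. A window without a match, such as those of H2-K1 and H2-D1 for the interferon element, may therefore hold a variant of the motif. A match is a description of the letters and was not tied to any factor's binding here.

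The other genes of class I presentation, with those of neighbouring pathways, were taken as 7 lists. Of 104 listed genes 90 were measured, and these were tested with limma over all named transcript clusters. After adjustment 0 of the 90 passed. An unadjusted p under 0.05 was reached by 8 of the 90 (8.89%), 2 higher and 6 lower after TCQA, against 7.37% of all named transcript clusters (3.48% higher and 3.89% lower), a share near the background. The median log2 difference of the 90 was -0.058, against 0.0028 over all named transcript clusters. Without water 1 the count of 8 became 4.

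Other class I and class I-like heavy chains made up the list with the most such genes, and the one with the most genes measured. Of 21 measured chains, 1 had an unadjusted p under 0.05 and was higher after TCQA, and 4 were lower, against 3.48% higher and 3.89% lower of all named transcript clusters. Cd1d2, the near copy of Cd1d1, read 4.20 and 4.40 on the TCQA arrays, against 3.38 and 3.49 on the water arrays, a log2 difference of 0.87 (SE 0.19, limma adjusted p = 0.642). Its direction was opposite to that of Cd1d1, and probes of such close copies may not separate them. Mill1, another class I-like chain, read 3.34 and 3.56 on the TCQA arrays, against 4.43 and 4.19 on the water arrays, a log2 difference of -0.86 (SE 0.20, limma adjusted p = 0.642). H2-M9, a non-classical chain, differed by -0.71 (SE 0.21, limma adjusted p = 0.673). The remaining genes of the 5, named after their values were seen, were H2-M11 at -0.82 and H2-M5 at -0.56. All 5 lay below the negative control median in both groups, as 18 of the 21 chains did over all arrays. The unadjusted p of H2-M9 rose above 0.05 when TCQA 1 (-0.62) or water 2 (-0.54) was left out, that of H2-M11 when TCQA 2 (-0.43) or water 1 (-0.70) was, and that of H2-M5 when TCQA 2 (-0.33), water 1 (-0.51) or water 2 (-0.61) was. H2-M5 also lost it under quantile normalization (-0.49), and at -0.56 with a trended variance prior and with a fit over every probe set.

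Genes that supply and load peptides gave no call in the fit of all arrays and named transcript clusters. Of 17 measured genes, which include immunoproteasome subunits and chaperones of the endoplasmic reticulum, 0 had an unadjusted p under 0.05, against 7.37% of all named transcript clusters, and the median log2 difference was 0.082. Psme3, a proteasome activator subunit, read 13.18 and 13.22 on the TCQA arrays, against 12.64 and 12.91 on the water arrays, a log2 difference of 0.42 (SE 0.20, limma adjusted p = 0.685). Tpp2, a cytosolic peptidase that trims peptides, differed by 0.41 (SE 0.20), and Pdia3, the oxidoreductase of the loading complex, by 0.39 (SE 0.24). The groups did not overlap for these 3 genes, which were named for the smallest p of the list. Over the 17 genes the groups did not overlap for 4 with TCQA higher and 2 with TCQA lower. Of all named transcript clusters 39.2% did not overlap, 19.9% with TCQA higher and 19.2% with TCQA lower. Pdia3 reached an unadjusted p under 0.05 without TCQA 1 (0.66), and stood at 0.12 without TCQA 2. Tpp2 stood at 0.27 without TCQA 2. Psme3 reached an unadjusted p under 0.05 with a trended variance prior and under both filters on dim signals, and Tpp2 with that prior and the filter on mean signal.

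Factors reported in human cells to carry MR1 through the cell gave no call either. Among the 5 measured, 0 had an unadjusted p under 0.05, against 7.37% of all named transcript clusters, and 0 had groups that did not overlap, against 39.2%. With 5 genes such counts say little. The median log2 difference was -0.010. Ap2a1, a subunit of the clathrin adaptor that takes up surface proteins, differed by 0.19 (SE 0.22), Vamp4, a vesicle fusion protein, by 0.15 (SE 0.21) and Stx4a, a syntaxin of the plasma membrane, by -0.097 (SE 0.19). The sign turned for Vamp4 without TCQA 2 (-0.016) and for Stx4a without TCQA 1 (0.0095). Over the arrays left out Ap2a1 ranged from 0.031 without TCQA 1 to 0.35 without TCQA 2, with 0.32 without water 1 and 0.065 without water 2. Without TCQA 1 Vamp4 stood at 0.31, without water 1 at 0.23 and without water 2 at 0.063. Stx4a stood at -0.20 without TCQA 2.

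Genes that load lipids onto Cd1d were lower after TCQA for 7 of 8, with a median log2 difference of -0.085. An unadjusted p under 0.05 was reached by 1 of the 8, against 7.37% of all named transcript clusters. Npc2, a lysosomal sterol carrier, read 6.19 and 5.99 on the TCQA arrays, against 6.65 and 6.68 on the water arrays, a log2 difference of -0.58 (SE 0.19, limma adjusted p = 0.673). It was the 1 gene of the list with an unadjusted p under 0.05, and it lost that without TCQA 2 (-0.48), without water 1 (-0.59) and without water 2 (-0.56). Mttp, a lipid transfer protein that assists Cd1d loading, differed by -0.43 (SE 0.25), and reached an unadjusted p under 0.05 without TCQA 2 (-0.72), while it stood at -0.13 without TCQA 1. Ctsl, a lysosomal protease, differed by 0.23 (SE 0.20), from 0.10 without water 2 to 0.36 without water 1.

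Among transcription factors of class I genes, Rfx5 had the smallest p. Rfx5, a DNA-binding subunit of the complex that NLRC5 joins at class I promoters, read 8.91 and 8.71 on the TCQA arrays, against 8.09 and 8.38 on the water arrays. The groups did not overlap, and the log2 difference was 0.58 (SE 0.21, limma adjusted p = 0.673). It was the 1 of 16 measured factors with an unadjusted p under 0.05, and lost it without TCQA 1 (0.48) and without water 1 (0.43). The partner subunits Rfxank and Rfxap, named after their values were seen, differed by 0.40 (SE 0.29) and -0.10 (SE 0.21). Irf9 and Stat2, which together form the factor induced by type I interferon, differed by -0.42 (SE 0.19) and 0.40 (SE 0.18), in opposite directions. Stat2 reached an unadjusted p under 0.05 under both filters on dim signals. The median of the list was 0.042, and its 1 gene of 16 with an unadjusted p under 0.05 stands against 7.37% of all named transcript clusters.

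Class II presentation genes, which display peptides from outside the cell to CD4 T cells, lay below the negative control median for 11 of 11 measured genes. The means were lower after TCQA for 10 of the 11, with a median log2 difference of -0.14. Of all named transcript clusters 50.5% had a higher mean after TCQA. An unadjusted p under 0.05 was reached by 0 of the 11, against 7.37% of all named transcript clusters. H2-Ab1, a class II beta chain, read 5.75 and 5.82 on the TCQA arrays, against 6.20 and 6.20 on the water arrays, a log2 difference of -0.41 (SE 0.18, limma adjusted p = 0.683). H2-Aa, its alpha chain, differed by -0.52 (SE 0.25) and Ciita, the class II regulator related to NLRC5, by -0.44 (SE 0.24). An unadjusted p under 0.05 was reached by H2-Aa without TCQA 2 (-0.79) and by Ciita without TCQA 1 (-0.70). H2-Aa stood at -0.25 without TCQA 1 and Ciita at -0.18 without TCQA 2.

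Receptors of class I molecules also lay below the negative control median, for 12 of 12 measured genes. An unadjusted p under 0.05 was reached by 1 of the 12, against 7.37% of all named transcript clusters. Cd160, a receptor of natural killer and T cells, read 4.06 and 4.01 on the TCQA arrays, against 4.74 and 4.64 on the water arrays, a log2 difference of -0.65 (SE 0.19, limma adjusted p = 0.664). It was the 1 gene of the list with an unadjusted p under 0.05, and lost it without TCQA 2 (-0.62). Klrd1, the CD94 chain of the receptor for Qa-1, read 4.60 and 3.88 on the TCQA arrays, against 5.89 and 4.20 on the water arrays. Water 1 alone was high, and the log2 difference of -0.81 (SE 0.55) became 0.041 without it, -0.45 without TCQA 2 and -1.66, with an unadjusted p under 0.05, without water 2. Lilr4b, a receptor of the leukocyte immunoglobulin-like family, differed by 0.28 (SE 0.18).

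**Figure D3:**
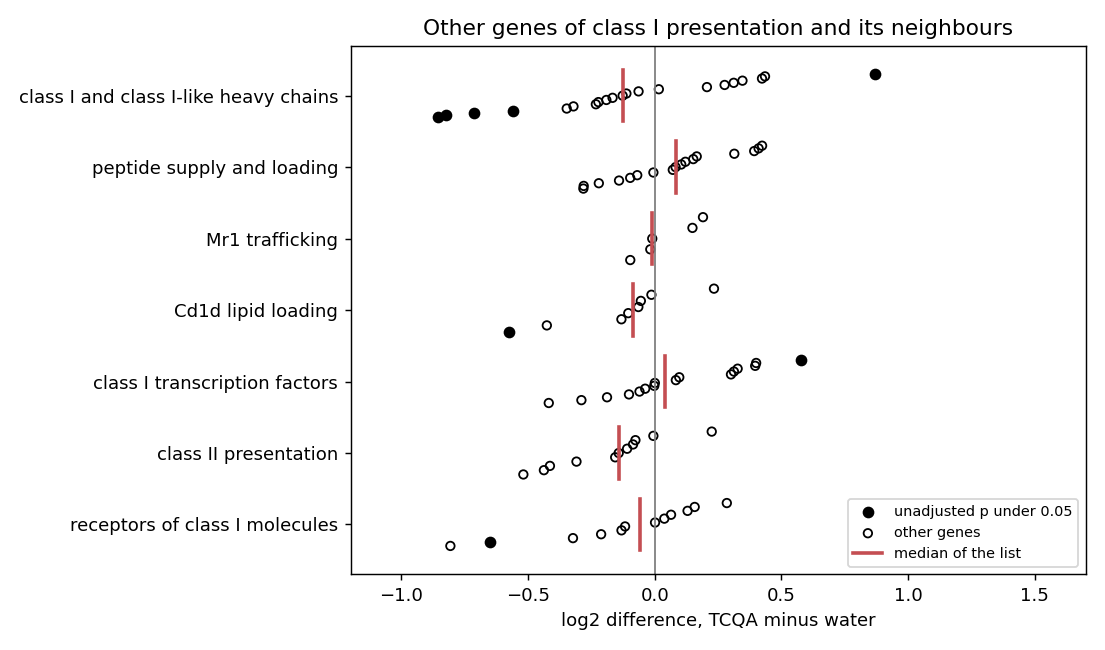
Log2 difference between the TCQA mean and the water mean (horizontal axis) of the 90 measured genes of the 7 lists, 1 point per gene, filled for an unadjusted limma p under 0.05, with a red line at the median of each list. The 8 filled points are spread over 4 lists, 5 of them among the heavy chains, and the medians lie between -0.14 and 0.082.

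The genes whose levels ran most like Mr1 over the 4 arrays were Fn1, Mex3b, Ksr1, Gpr107 and Grasp. Likeness was the distance between the 4 centred log2 values and those of Mr1, over 9786 transcript clusters in the brighter part of the array, and the distances lay between 0.045 and 0.17 log2 units. Fn1, which encodes fibronectin, read 8.09 and 8.18 on the TCQA arrays, against 7.03 and 7.06 on the water arrays. With 4 arrays such a match is a description.

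Cells that can carry class I molecules were followed by their markers. Microglial markers were lower after TCQA for 10 of 14 genes, and their mean log2 level was 8.46 and 8.24 in the TCQA arrays and 8.54 and 8.46 in the water arrays. TCQA 2 had the lowest mean of these markers, and was also the lowest array for H2-K1, Tapbp and Cd1d1. For Cd1d1 it lay only 0.0093 below TCQA 1. Among the other members, water 2 was the lowest array for 4, B2m among them, and TCQA 1 and water 1 for 1 each. Endothelial markers were higher for 9 of 12 genes, with means of 9.08 and 9.09 in the TCQA arrays and 8.82 and 8.94 in the water arrays. The endothelial groups did not overlap and ran in the direction of Mr1. The same held for the list means of border macrophages, dendritic cells and excitatory neurons, so endothelium was not alone in this. The list means of choroid plexus, astrocytes and oligodendrocytes did not overlap either, with TCQA lower. Among the 12 single endothelial genes, 5 had separate groups with TCQA higher and 2 with TCQA lower. Of all named transcript clusters, 19.9% had separate groups with TCQA higher and 19.2% with TCQA lower. The 5 were Slc2a1 (0.77), Abcb1a (0.74), Flt1 (0.67), Pecam1 (0.37) and Ly6c1 (0.26). The 2 were Emcn (-0.67) and Vwf (-0.40), both below the negative control median in both groups. Markers of macrophages at brain borders were higher for 4 of 7 genes, with means of 5.56 and 5.24 in the TCQA arrays and 5.21 and 5.08 in the water arrays. Mrc1, the mannose receptor, stood apart in that list with a log2 difference of 1.51 (SE 0.39, limma adjusted p = 0.655), against a list median of 0.13. Its TCQA arrays lay far apart, at 8.68 and 7.46, against 6.54 and 6.57 on the water arrays. The part of these cell types in the class I values was not tested, and in bulk tissue fewer cells of a type and less RNA per cell cannot be told apart.

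Most markers of lymphocytes and dendritic cells stood below the negative control median. T and natural killer cell markers lay below the negative control median for 10 of 11 genes, with means of 4.70 and 4.67 in the TCQA arrays and 4.80 and 4.53 in the water arrays. Cd3e, a chain of the T cell receptor complex, stood at 3.17 and 3.67 in the TCQA arrays and 3.23 and 3.07 in the water arrays. Zbtb16, the factor of invariant T cells, was the gene above it, at 11.97 after TCQA and 11.57 after water, and is also expressed by other cells. Dendritic cell markers lay below that median for 6 of 7 genes.

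Markers of neighbouring tissue also differed between the arrays. Choroid plexus markers were lower after TCQA for 11 of 11 genes, with means of 7.48 and 6.77 in the TCQA arrays and 8.89 and 8.24 in the water arrays. Their groups did not overlap, and water 1 was the highest array, as it was for B2m, Tapbp, H2-K1, H2-D1 and Cd1d1. Striatal markers had means of 13.15 and 12.57 in the TCQA arrays and 14.05 and 12.85 in the water arrays, and oligodendrocyte markers 11.02 and 10.95 in the TCQA arrays and 11.79 and 11.14 in the water arrays. For both of these lists water 1 was again the highest array. Olfactory bulb markers were highest in TCQA 2, with means of 6.12 and 8.20 in the TCQA arrays and 6.60 and 6.43 in the water arrays. TCQA 2 was also the highest array for Tap1 and H2-T23. The Mr1 levels were 7.34 on TCQA 1 and 7.39 on TCQA 2, and the olfactory bulb list was lowest on TCQA 1. Whether this tissue content bears on the class I values was not tested.

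**Figure D4:**
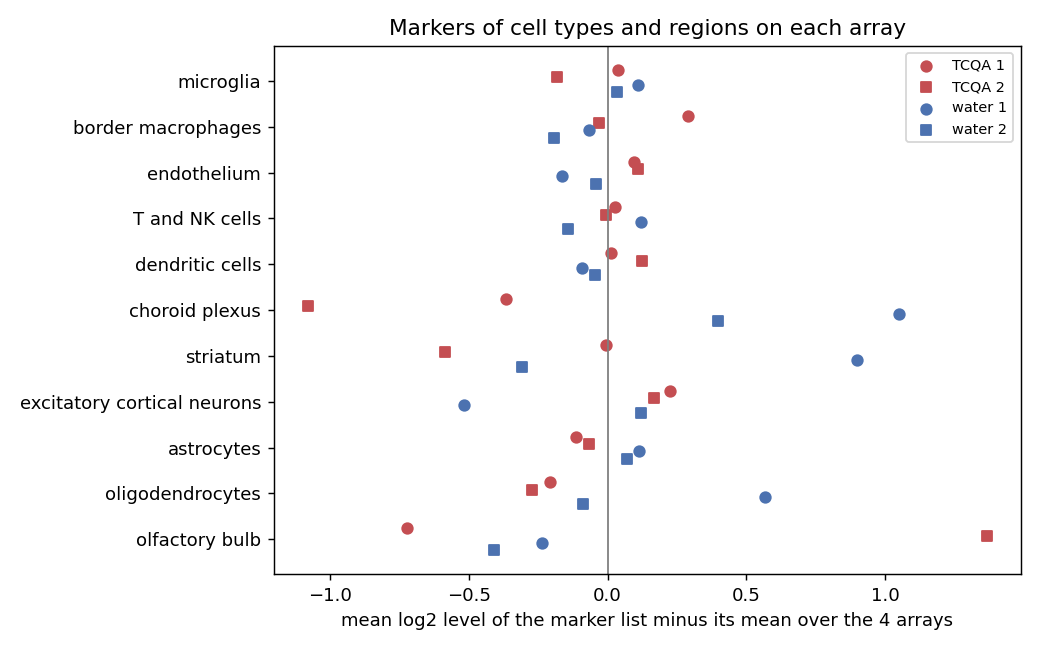
Mean log2 level of each marker list on each array minus its mean over the 4 arrays (horizontal axis), with TCQA arrays in red and water arrays in blue, circles for replicate 1 and squares for replicate 2. Water 1 stands highest for choroid plexus, striatum and oligodendrocytes, and TCQA 2 stands highest for olfactory bulb and lowest for choroid plexus and microglia.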

How the data were processed

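From each of 4 cortex samples 100 ng of RNA were used for a Clariom S array. The deposited values are log2 signals. Per the submitters' design text, the authors normalized them by RMA with signal space transformation, using version 4.0.2 of the Transcriptome Analysis Console. The processing notes also name RMA and limma. These values carry no depth per array, and the transformation can enlarge differences. The authors' filters on detection (0.05) and on the area under the curve (0.7) rest on probe values not used here. No source used here names the authors' genome build.

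The table holds 28846 rows, of which the platform annotation names 19572. All of their gene identifiers matched RefSeq (GRCm38.p6) and 0 symbols changed. Groups came from the sample labels. limma 3.58.1 in R 4.3.3 was fitted over all 19572 (lmFit and eBayes, 2-sided, no block), with Benjamini-Hochberg adjustment, and the script was tested on simulated data. The members and gene lists were chosen with earlier results of these data known. Named were the 10 members, the 3 genes of smallest p per pathway list, the 5 nearest to Mr1 and, where described, bright markers. Cd3e, Rfxank, Rfxap, H2-M11 and H2-M5 were named outside this rule. So were the endothelial genes Abcb1a, Flt1, Pecam1, Emcn and Vwf, picked for their separate groups. The labels do not say whether replicate numbers pair the arrays. The correlation of deviations was -0.0032, a value that cannot show whether arrays of 1 number shared a batch. Alternatives covered the block, normalization, centring, variance prior, dim-signal filters and each array left out. For the pathway genes named, the same alternatives were added after seeing the data. Figures used matplotlib 3.10.9 in Python 3.11.15.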

Additional observations from a re-analysis of the deposited data

How the results depend on the processing

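The Mr1 difference ranged from 1.08 to 1.14 when an array was left out, which the gaps within the groups fix and which is no sign of stability, and it stood at 1.12 under quantile normalization and at 1.09 with centred arrays. With the replicate block it was 1.11, the count of pathway genes with an unadjusted p under 0.05 was 9 against 8, and the count past the submitters' criteria stayed at 130. Since no pairing of the arrays is known, the block is no sign of strength, and with it Klrd1 reached an unadjusted p under 0.05 (-0.81). The median of the members was -0.058 with all arrays, between -0.19 and -0.012 when an array was left out, and -0.34 among the 3 members with a mean signal at or above the median, a filter that leaves out Mr1. The count of transcript clusters past the submitters' criteria, 130 in all, was 44 of the 9786 with a mean signal at or above the median and 56 of the 10067 with a group mean at or above the negative control median, where fewer were tested, and between 218 and 428 when an array was left out. The count of 8 pathway genes was 4 and 3 of 43 under these filters, and between 4 and 8 when an array was left out. Signs turned for B2m without water 1 (0.074), Tap2 without TCQA 1 (-0.13) and without water 1 (-0.16), Klrd1 without water 1, Stx4a without TCQA 1 and Vamp4 without TCQA 2, and over the arrays left out the values ranged from -1.66 to 0.041 for Klrd1, from -0.20 to 0.0095 for Stx4a and from -0.016 to 0.31 for Vamp4. The cause was not tested. Signal within the range of the negative controls limits Mr1 and most other members.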
